A study of Mus musculus with 15 samples.

Results

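The citric acid cycle enzymes described here are the products of 9 genes of the mouse, Cs, Idh3a, Idh3b, Idh3g, Ogdh, Sucla2, Suclg1, Fh1 and Mdh2, the core enzymes of the cycle other than succinate dehydrogenase. They were chosen by gene symbol, and no expression value entered the rule, although it was drawn up with earlier results of these data known. All 9 were among the 55984 gene symbols of the count data, and all 9 were among the 17488 genes that passed the filter on low counts.

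The RNA came from hepatocytes of wild-type adult male C57BL/6JJcl mice, stained with Hoechst for DNA content and sorted. The populations were 2n-whole (diploid hepatocytes), 4n-whole (all tetraploid hepatocytes, a mixture of cells with 1 nucleus and cells with a pair of nuclei), 4n-bottom (tetraploid cells of low Hoechst signal height, enriched for binucleated cells) and 4n-top (tetraploid cells of high signal height, enriched for mononucleated cells). The 4n-top and 4n-bottom gates enriched for the nuclear types and did not purify them. Each population comprised 1 library from each of 4 mice, except 4n-top with 3 (mice 2, 3 and 4), for a total of 15 libraries. The study's question was how ploidy and nuclear number relate to the hepatocyte transcriptome. No gene was deleted and no mouse was treated in any group. The 2n-whole cells were spun at a different speed after sorting than the tetraploid cells, so ploidy and this handling step cannot be told apart.

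The citric acid cycle runs in the mitochondrial matrix. It oxidizes the acetyl group of acetyl-CoA to carbon dioxide and passes the electrons, as NADH and reduced flavin, to the respiratory chain. In the liver it also gives and takes intermediates for glucose, lipid, amino acid and urea synthesis. All of its enzymes are encoded in the nucleus and imported, whereas the mitochondrial genome encodes only subunits of the respiratory chain and of ATP synthase, next to its own ribosomal and transfer RNAs.

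No enzyme of the group passed the edgeR test in any of the 4 comparisons, and the differences in level were small. In 4n-whole against 2n-whole 5.47% of all tested genes passed it. The number depended on the method. With ComBat-seq and DESeq2, 5 of the 9 passed in that comparison (12.5% of all genes with an adjusted p). DESeq2 with the mouse as a block passed 3 (8.18% of all genes). In 4n-top against 2n-whole, ComBat-seq and DESeq2 passed 2 (4.61% of all genes). In edgeR, 6 of the 9 estimates for 4n-whole against 2n-whole were below 0 and 3 above. They ran from -0.38 for Idh3g to 0.22 for Mdh2 on the log2 scale. The sign of Idh3b turned with library totals in place of TMM, and that of Idh3a with ComBat-seq and DESeq2. Between 4n-top and 4n-bottom all estimates lay between -0.07 and 0.17. The mouse terms of the edgeR model were tested after the data were seen. There, 3 of the 9 genes differed between mice (Fh1, Idh3g and Mdh2), beside 19.2% of all tested genes.

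Total counts per library were 31814400 to 42096421 in 2n-whole, 22049498 to 38110566 in 4n-whole, 31461234 to 40831810 in 4n-bottom and 25588972 to 41438193 in 4n-top. The lowest count of any member in any library was 487 (Idh3g) and the highest was 12791 (Mdh2). Whether both mates of a read pair were counted is not given in the sources used here. Levels of single genes are given as CPM, counts scaled to a common library total with TMM factors. Summed marker levels are CPM scaled to library totals without TMM factors. These factors were 0.891 to 0.965 in 2n-whole and 0.992 to 1.13 in 4n-whole. Summed levels are therefore not on the scale of the single genes, and their differences between populations are to be read with this in mind. Of 6 hepatocyte markers 5 were analysed, and together they held between 63600 and 90100 CPM in every library. Summed markers of other cell types were 2.66 to 25.4 CPM for endothelial cells, 0.381 to 6.91 for Kupffer and other myeloid cells, 0.21 to 2.36 for stellate cells and fibroblasts and at most 0.503 for lymphocytes. Erythroid markers, with 2 of 5 at 0 in every library, amounted to 57.8 to 108 CPM. Only Alas2 among them passed the filter on low counts, with population means of 69.5 to 80.3 CPM after TMM scaling. The haemoglobin genes did not pass it. Biliary markers were at 31.4 to 45.7 CPM in 2n-whole and 17.8 to 35.3 CPM in 4n-whole, and 2 of the 4 tested, Sox9 and Spp1, fell in 4n-whole. Transcripts of the mitochondrial genome, ribosomal RNA included, took 20.5% to 26.2% of the counts in 2n-whole, 8.84% to 18.5% in 4n-whole, 12.2% to 23.6% in 4n-bottom and 11.9% to 13.0% in 4n-top. All populations are bulk samples, in which fewer cells of a type and less RNA per cell cannot be told apart.

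The 9 enzymes were expressed well in every library, and their mean CPM stood between the 75.8th and the 97.6th percentile of the tested genes. To compare levels between genes, CPM were divided by the length of all annotated exons of the gene (GRCm39, GENCODE M39). On this scale Mdh2 was the most abundant with 47.8 CPM per kb (SD 6.92 over 15 libraries), followed by Suclg1 with 30.8 (SD 3.07), Ogdh with 26.4 (SD 2.13) and Idh3b with 25.3 (SD 2.76). Fh1 had 15.9 CPM per kb (SD 2.75), Sucla2 15.9 (SD 2.63), Cs 11.54 (SD 1.03), Idh3g 4.86 (SD 1.07) and Idh3a 4.32 (SD 0.531). Mdh2 was above Suclg1 in 15 of 15 libraries, Suclg1 above Ogdh in 14, Idh3b above Fh1 in 15, Sucla2 above Cs in 15 and Cs above Idh3g in 15. The neighbours Ogdh and Idh3b, ordered this way in 10 libraries, Fh1 and Sucla2, in 9, and Idh3g and Idh3a, in 10, did not differ beyond their spread. The length counts the exons of every isoform, so the value is low for genes with many long isoforms.

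**Figure D1:**
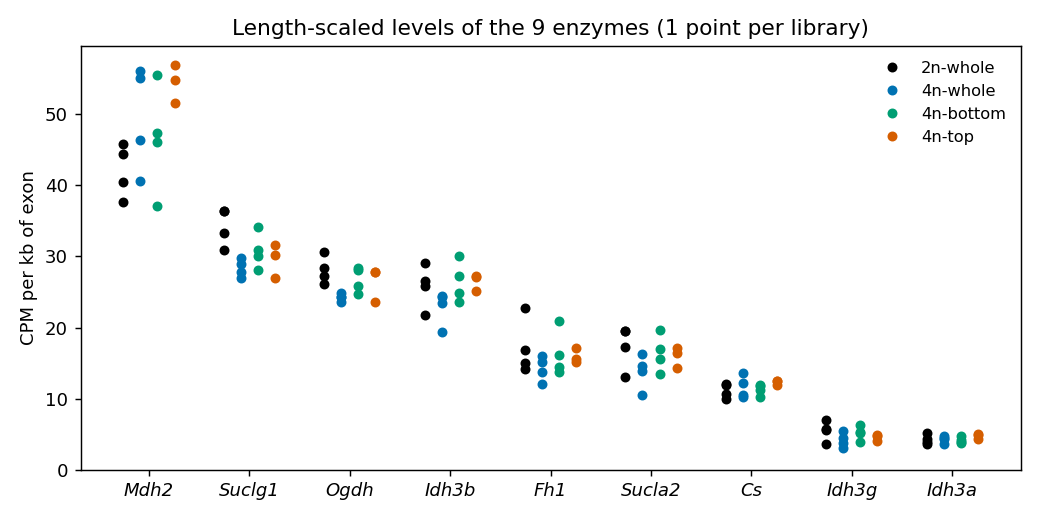
Level of each enzyme in CPM per kb of exon on an axis from 0, with 1 point per library coloured by population. Mdh2 is highest in all 15 libraries, and Idh3g and Idh3a lie lowest, below Cs in all 15.

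Citrate synthase (Cs, chromosome 10, 128172837 to 128198363, plus strand), which joins acetyl-CoA to oxaloacetate and so admits carbon to the cycle, differed little in mean level across the populations. Its level was 67.8, 75.5, 63.0 and 76.6 CPM in mice 1 to 4 of 2n-whole and 86.1, 66.7, 65.4 and 77.5 CPM in 4n-whole. In 4n-bottom it was 75.5, 74.5, 64.9 and 71.6 CPM, and in 4n-top it was 79.2, 76.1 and 79.1 CPM in mice 2, 3 and 4. The 4n-whole and 2n-whole ranges overlapped, with a log2 fold change of 0.06 (95% interval -0.14 to 0.26). The 3 values of 4n-top lay just above all 4 of 4n-bottom and were higher in 3 of 3 mice (log2 fold change 0.16, interval -0.06 to 0.37, edgeR adjusted p = 1). Of all tested genes, 1.37% were higher in 4n-top without overlap.

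NAD-dependent isocitrate dehydrogenase, which makes 2-oxoglutarate and is a point of control by ADP and NADH, is built from the catalytic subunit Idh3a (chromosome 9, 54493575 to 54514730, plus strand) and the subunits Idh3b (chromosome 2, 130121227 to 130126467, minus strand) and Idh3g (chromosome X, 72820644 to 72830719, minus strand). The lowest estimate of the whole group was that of Idh3g. Its level was 28.8, 35.7, 18.6 and 29.7 CPM in mice 1 to 4 of 2n-whole and 28.2, 19.5, 15.9 and 23.0 CPM in 4n-whole. It was lower in 4n-whole in 4 of 4 mice, but the drop was close to nil in mouse 1 and the ranges overlapped. The log2 fold change was -0.38 (SE 0.13, interval -0.64 to -0.12, edgeR adjusted p = 0.0768). In 4n-bottom Idh3g had 32.1, 27.0, 19.9 and 26.6 CPM, and in 4n-top it had 24.2, 20.5 and 25.4 CPM, both within the range of 2n-whole. Mouse 3 had the lowest Idh3g of its population in all 4 populations.

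The other subunits of this enzyme had estimates nearer to 0 in this comparison. Idh3a ranged from 29.3 to 42.6 CPM in 2n-whole and from 29.4 to 39.4 CPM in 4n-whole (log2 fold change 0.019, interval -0.21 to 0.24). Its range was 30.2 to 39.4 CPM in 4n-bottom and 34.9 to 40.8 CPM in 4n-top, higher in 4n-top in 3 of 3 mice (0.16, interval -0.09 to 0.40). Idh3b ranged from 90.5 to 121 CPM in 2n-whole and from 80.7 to 102 CPM in 4n-whole (-0.17, interval -0.37 to 0.03). Its ranges of 98.05 to 125 CPM in 4n-bottom and 104 to 114 CPM in 4n-top overlapped. Whether the change of Idh3g differed from those of Idh3a and Idh3b was not tested.

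Ogdh (chromosome 11, 6241551 to 6309233, plus strand) is the first subunit of the 2-oxoglutarate dehydrogenase complex, which forms succinyl-CoA. Its level was 255, 245, 266 and 287 CPM in mice 1 to 4 of 2n-whole and 221, 228, 227 and 232 CPM in 4n-whole. All 4 values of 4n-whole lay below all 4 of 2n-whole, and the log2 fold change was -0.21 (SE 0.086, interval -0.39 to -0.037, edgeR adjusted p = 0.150). Of all tested genes, 3.09% were lower in 4n-whole without overlap. The values of 4n-bottom (232, 266, 243 and 263 CPM) and of 4n-top (261, 260 and 221 CPM) overlapped with both. The other subunits of the complex are Dlst and Dld, of which Dlst had a log2 fold change of -0.042 (interval -0.21 to 0.13) in 4n-whole against 2n-whole and Dld one of -0.31 (SE 0.11, edgeR adjusted p = 0.111).

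Succinyl-CoA ligase, the step with substrate-level phosphorylation, joins the alpha subunit Suclg1 (chromosome 6, 73225365 to 73253894, plus strand) either to Sucla2 (chromosome 14, 73762759 to 73834335, plus strand), which forms ATP, or to Suclg2, which forms GTP. The enzyme nearest to the threshold in 4n-whole against 2n-whole was Suclg1. Its level was 209, 192, 178 and 210 CPM in mice 1 to 4 of 2n-whole and 172, 155, 166 and 160 CPM in 4n-whole. The groups did not overlap, and 3.09% of all tested genes were lower in 4n-whole without overlap. The log2 fold change was -0.27 (SE 0.084, interval -0.44 to -0.094, edgeR adjusted p = 0.0609, and 0.0427 with DESeq2 size factors). In 4n-bottom Suclg1 had 178, 173, 162 and 197 CPM and was lower than in 2n-whole in 4 of 4 mice (-0.15, interval -0.33 to 0.02, edgeR adjusted p = 0.558). In 4n-top it had 173, 155 and 181 CPM and was lower in 3 of 3 mice (-0.19, interval -0.39 to -0.0014, edgeR adjusted p = 0.438). These ranges overlapped with that of 2n-whole, and the 3 comparisons share the 2n-whole libraries.

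Sucla2 varied more between libraries. It had 184, 162, 122 and 184 CPM in mice 1 to 4 of 2n-whole and 154, 99.0, 137 and 131 CPM in 4n-whole. It was lower in 4n-whole in 3 of 4 mice and higher in mouse 3, with a log2 fold change of -0.31 (SE 0.12, interval -0.55 to -0.073, edgeR adjusted p = 0.116). Mouse 2 of 4n-whole, the library with the lowest total count, held the lowest value of Sucla2 over all 15 libraries. The ranges of 127 to 185 CPM in 4n-bottom and 135 to 161 CPM in 4n-top overlapped with that of 2n-whole. The alternative partner Suclg2 had a log2 fold change of -0.069 (interval -0.24 to 0.10). Within a library, the count of Sucla2 divided by that of Suclg2 was 0.824 ± 0.124 in 2n-whole (SD, n = 4) and 0.693 ± 0.124 in 4n-whole (SD, n = 4), with overlapping values.

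Fumarase (Fh1, chromosome 1, 175425290 to 175453205, minus strand) hydrates fumarate to malate, in the mitochondrion and in the cytosol, where fumarate also comes from the urea cycle. Its level was 143, 151, 169 and 229 CPM in mice 1 to 4 of 2n-whole and 138, 121, 152 and 161 CPM in 4n-whole. It was lower in 4n-whole in 4 of 4 mice, although the ranges overlapped. The log2 fold change was -0.26 (SE 0.094, interval -0.45 to -0.065, edgeR adjusted p = 0.106). In 4n-bottom Fh1 had 138, 145, 162 and 210 CPM and in 4n-top 157, 153 and 173 CPM, and both ranges overlapped with that of 2n-whole. Mouse 4 had the highest Fh1 of its population in all 4 populations.

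Mitochondrial malate dehydrogenase (Mdh2, chromosome 5, 135807292 to 135820882, plus strand) regenerates oxaloacetate and serves the malate-aspartate shuttle, and it was the member with the highest estimates. Its level was 218, 247, 203 and 239 CPM in mice 1 to 4 of 2n-whole and 218, 296, 249 and 302 CPM in 4n-whole. It was higher in 4n-whole in mice 2, 3 and 4 and level in mouse 1, with a log2 fold change of 0.22 (SE 0.088, interval 0.04 to 0.40, edgeR adjusted p = 0.147). With library totals in place of TMM, which raised the median of all genes by 0.20, it was 0.43 and passed (edgeR adjusted p = 0.00651). In 4n-bottom it had 200, 248, 255 and 299 CPM, which overlapped with 2n-whole (0.13, interval -0.05 to 0.31). In 4n-top it had 295, 278 and 306 CPM, and all 3 values lay above all 4 of 2n-whole (0.30, SE 0.098, interval 0.10 to 0.50, edgeR adjusted p = 0.173). It passed with only these 2 populations in the model (0.34, edgeR adjusted p = 0.0409) and with library totals (0.46, edgeR adjusted p = 0.0232). Of all tested genes, 4.82% were higher in 4n-top than in 2n-whole without overlap. The 4n-top group holds no library of mouse 1, which had the lowest Mdh2 of 4n-whole (218 CPM) and of 4n-bottom (200 CPM). In mice 2, 3 and 4 the Mdh2 values of 4n-whole and of 4n-bottom also lay above all 4 of 2n-whole. This leaves out the mouse with the lowest values, and with mouse 1 both populations overlapped with 2n-whole. Between 4n-top and 4n-bottom Mdh2 was higher in 3 of 3 mice (0.17, interval -0.03 to 0.37, edgeR adjusted p = 1), with overlapping ranges.

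**Figure D2:**
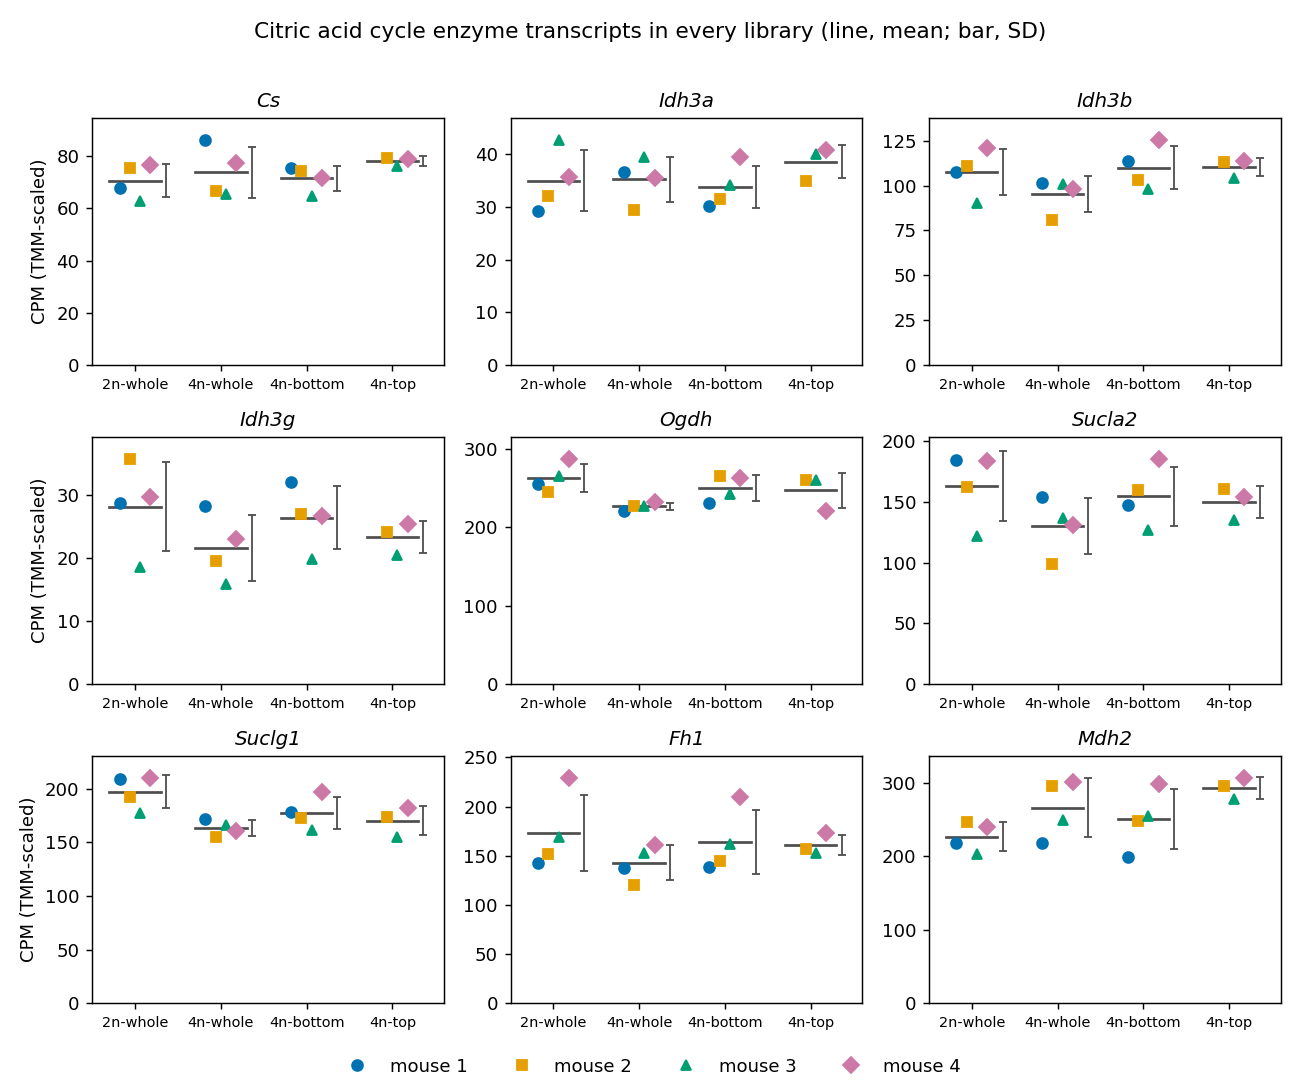
CPM of each enzyme in each library, 1 panel per gene with its own axis from 0, by population, with the mouse shown by colour and symbol, the line at the mean and the bar as SD. Suclg1 and Ogdh in 4n-whole lie wholly below 2n-whole, and Idh3g is lowest in mouse 3 throughout. Mdh2 in 4n-top, which holds no library of mouse 1, lies wholly above 2n-whole.

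Because Mdh2 and Suclg1 had estimates of opposite sign, their counts were also divided within each library, a ratio that does not depend on scaling and was chosen after the values were seen. The ratio of Mdh2 to Suclg1 was 1.15 ± 0.10 in 2n-whole (SD, n = 4), 1.64 ± 0.31 in 4n-whole (n = 4), 1.41 ± 0.20 in 4n-bottom (n = 4) and 1.73 ± 0.05 in 4n-top (n = 3). The ranges were 1.04 to 1.28 in 2n-whole, 1.27 to 1.91 in 4n-whole, 1.12 to 1.58 in 4n-bottom and 1.69 to 1.79 in 4n-top. Only 4n-top, which holds no library of mouse 1, did not overlap with 2n-whole. Mouse 1 had the lowest ratio of 2n-whole (1.043), of 4n-whole (1.271) and of 4n-bottom (1.122). In mice 2, 3 and 4 the ratio was 1.142 to 1.285 in 2n-whole. In the same mice it was 1.5 to 1.913 in 4n-whole and 1.434 to 1.576 in 4n-bottom. Leaving out mouse 1, which had the lowest ratios, favours a gap from 2n-whole, and with mouse 1 both ranges overlapped with it. How often other pairs of genes show such gaps was not measured. The ratio of Mdh2 to its cytosolic counterpart Mdh1 was 0.441 ± 0.035 in 2n-whole (SD, n = 4), 0.578 ± 0.101 in 4n-whole (n = 4), 0.50 ± 0.067 in 4n-bottom (n = 4) and 0.593 ± 0.044 in 4n-top (n = 3). These ratios are a description without a test.

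In 4n-whole against 2n-whole, 0 of the 9 enzymes passed edgeR's quasi-likelihood test (adjusted p under 0.05 over 17488 genes), where 5.47% of all tested genes passed, and 0 met the study's rule for a differentially expressed gene, with a log2 fold change beyond 0.5 as well, which 3.47% of all genes met. At an unadjusted p under 0.05 there were 5 lower members (Idh3g, Ogdh, Sucla2, Suclg1 and Fh1) against 10.1% of all genes, and 1 higher member (Mdh2) against 10.3%. The median log2 fold change of the 9 was -0.214, beside -0.007 over all tested genes. With the mouse adjusted by ComBat-seq and the counts then tested with DESeq2, the order of steps in the study, 5 passed, where 12.5% of all genes with an adjusted p passed. They were Suclg1 (-0.28, DESeq2 adjusted p = 8.15e-05), Fh1 (-0.29, 0.00381), Idh3g (-0.40, 0.00747), Ogdh (-0.23, 0.00754) and Mdh2 (0.23, 0.00992). With DESeq2 and the mouse as a replicate block, 3 passed (Suclg1, Fh1 and Idh3g), where 8.18% of all genes did. With the mouse left out of the edgeR model, 0 passed. None of these 5 estimates exceeded 0.5 in size in any of these fits.

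Leaving out a mouse also moved single members of this comparison past the threshold in edgeR. Without mouse 1, where 6.32% of all genes passed, Idh3g passed with -0.50 (edgeR adjusted p = 0.0391). Without mouse 3, where 7.57% of all genes passed, Sucla2 passed with -0.48 (edgeR adjusted p = 0.00915) and Suclg1 with -0.33 (edgeR adjusted p = 0.04797). Without mouse 2 or mouse 4, and without the shallowest library (4n-whole of mouse 2), 0 passed. Estimates also shrank, and without mouse 2 they were -0.22 for Idh3g, -0.20 for Sucla2 and -0.08 for Idh3b. Without the shallowest library alone they were -0.30 for Idh3g, -0.18 for Sucla2 and -0.09 for Idh3b. With library totals in place of TMM the estimates of Idh3g, Sucla2, Suclg1, Fh1 and Ogdh were -0.17, -0.11, -0.06, -0.05 and -0.0062, to be read against the shift of 0.20 in the median of all genes.

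In 4n-top against 4n-bottom, the comparison of nuclear number within tetraploid cells, 0 of 9 passed in edgeR (0.0114% of all genes did), and 0 were under an unadjusted p of 0.05 (2.79% of all genes). Neither DESeq2 fit called any member. The estimates ran from -0.07 for Idh3g to 0.17 for Mdh2 with a median of 0.003, and the widest interval was that of Idh3g, from -0.36 to 0.22. In 4n-bottom against 2n-whole 0 of 9 passed (0.492% of all genes) and 0 were under an unadjusted p of 0.05 (10.2% of all genes), with a median of -0.07. In 4n-top against 2n-whole 0 of 9 passed (1.06% of all genes), and 2 were under an unadjusted p of 0.05, Mdh2 and Suclg1 (11.3% of all genes), with a median of -0.07. With ComBat-seq and DESeq2, where 4.61% of all genes passed, these same 2 genes passed, Mdh2 with 0.29 (DESeq2 adjusted p = 0.0027) and Suclg1 with -0.22 (DESeq2 adjusted p = 0.0145). In these 3 comparisons 0 of 9 met the study's rule, which 0.0114%, 0.463% and 0.961% of all genes met, in the order given. Comparisons with 2n-whole share its 4 libraries and are not independent of each other.

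**Figure D3:**
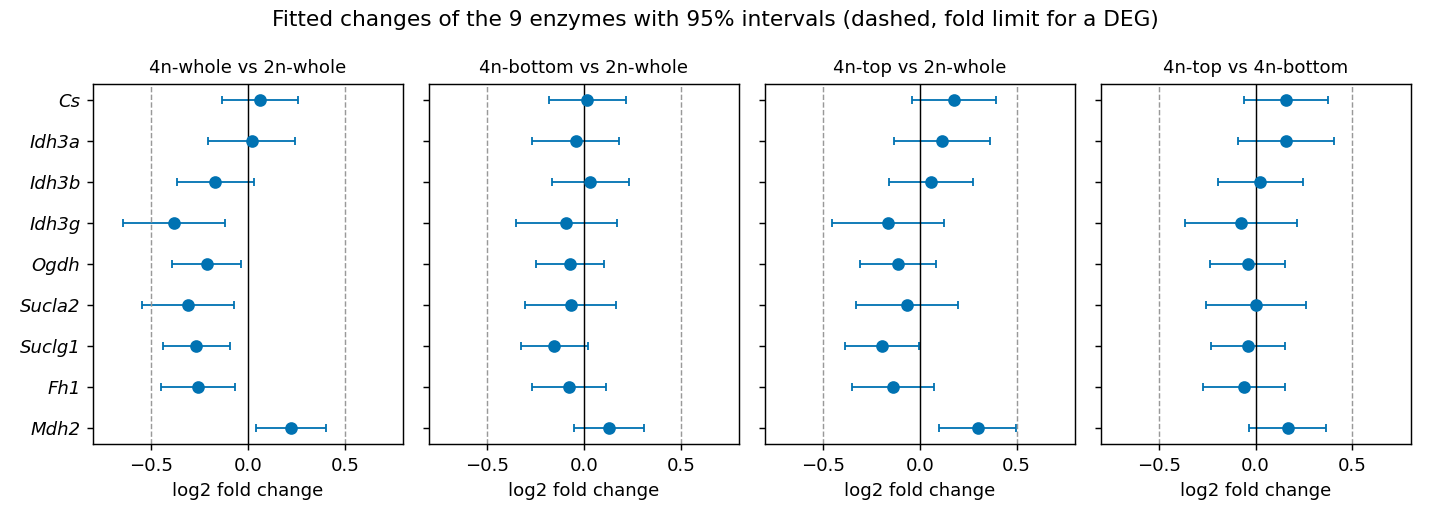
Log2 fold change of each enzyme in the 4 comparisons, with 95% intervals from edgeR and dashed lines at the fold limit of the study's rule. In 4n-whole against 2n-whole the intervals of 6 genes exclude 0, 5 below and Mdh2 above, before adjustment for the number of genes tested, and in 4n-top against 4n-bottom all 9 include 0.

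Differences between mice were of the same order as those between populations. In an F test of the mouse terms of the same edgeR model, added after the data were seen, 3 of 9 members passed, Fh1 (adjusted p = 0.0023), Idh3g (adjusted p = 0.00383) and Mdh2 (adjusted p = 0.0209), beside 19.2% of all genes. The spread between the mouse estimates was 0.67 for Idh3g, 0.46 for Fh1 and 0.38 for Mdh2 on the log2 scale, and it was smallest for Ogdh with 0.09. It exceeded the spread between populations in 6 of the 9 members (66.7%), as it did in 66.2% of all genes. The median spread of the members was 0.286 between mice and 0.259 between populations, beside 0.644 and 0.468 over all tested genes. A mouse includes its perfusion, sort and library preparation, which cannot be told apart.

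After the mouse effect was removed, correlations between the enzymes over the 15 libraries were mostly above 0. Of 36 pairs, 27 had a correlation above 0 and the median was 0.25. The closest pairs were Idh3b with Sucla2 (Pearson's r = 0.878), Suclg1 with Fh1 (0.808) and Ogdh with Fh1 (0.798). The lowest were Mdh2 with Suclg1 (-0.591), with Fh1 (-0.554) and with Ogdh (-0.486). Of the 9 pairs below 0, 6 held Mdh2, and the others were Cs with Suclg1 (-0.337), Cs with Ogdh (-0.107) and Idh3a with Ogdh (-0.0648). These values describe 15 libraries that share mice, scaling and population differences, and no p is attached. The mean z-score of the 9 was lowest in 4n-whole of mouse 2 (-1.39) and of mouse 4 (-0.917) and highest in 4n-top of mouse 2 (0.705). Among 3459 well-expressed genes outside the lists, those most like this mean were Timd2 (r = 0.971), H3f3a (0.957), Acp1 (0.955), Gclm (0.954) and Slc25a5 (0.954), over the same 15 libraries.

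The genes around the cycle were grouped in 7 lists of nuclear genes, of which 5 of 61 tested genes (8.2%) passed in 4n-whole against 2n-whole, beside 5.47% of all genes. Of 8 other cycle subunits (Idh2, Dlst, Dld, Suclg2 and the 4 of succinate dehydrogenase), 0 passed in any of the 4 comparisons, and the median log2 fold change in 4n-whole against 2n-whole was -0.07. The smallest p there were those of Dld (given above), of Sdhc, a membrane anchor of succinate dehydrogenase (0.24, SE 0.097, edgeR adjusted p = 0.163), and of Sdha, its flavoprotein (-0.16, SE 0.085, edgeR adjusted p = 0.299). At an unadjusted p under 0.05 there were 2, Dld (lower, as were 10.1% of all genes) and Sdhc (higher, as were 10.3%). With ComBat-seq and DESeq2 2 passed, where 12.5% of all genes with an adjusted p passed. Of 3 cofactor attachment genes (Lias, Lipt1 and Lipt2), which make and attach lipoic acid, 0 passed in any comparison.

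Of 10 tested genes of pyruvate dehydrogenase and its control, 1 rose in 4n-whole. This was Pdk4, the kinase that switches the complex off in fasting. It had 6.09 to 10.1 CPM in 2n-whole and 12.5 to 17.95 CPM in 4n-whole (log2 fold change 0.79, SE 0.18, edgeR adjusted p = 0.00928, higher in 4 of 4 mice). Of 14 genes of entry and exit reactions and carriers, 1 fell, the aspartate-glutamate carrier Slc25a12, with 16.1 to 21.6 CPM in 2n-whole and 11.35 to 14.2 CPM in 4n-whole (-0.53, SE 0.14, edgeR adjusted p = 0.0252). Of 7 cytosolic counterparts, 1 fell, Acly, which cleaves exported citrate for lipid synthesis (-0.39, SE 0.083, edgeR adjusted p = 0.00549, lower in 4 of 4 mice). It varied widely between mice, from 291 to 784 CPM in 2n-whole and from 231 to 663 CPM in 4n-whole, so the ranges overlapped.

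Of 7 regulators of mitochondrial genes, 1 fell, the coactivator Ppargc1a, with 13.2 to 31.4 CPM in 2n-whole and 10.5 to 21.3 CPM in 4n-whole (-0.59, SE 0.13, edgeR adjusted p = 0.00682, lower in 4 of 4 mice). Of 12 import, pore and chaperone genes, 1 rose, the prohibitin Phb1 (0.34, SE 0.10, edgeR adjusted p = 0.0497, higher in 4 of 4 mice). Without the 4n-whole library of mouse 2 the adjusted p of Phb1 was 0.194 and that of Slc25a12 was 0.0657. Without mouse 4, or without the mouse in the model, none of the 5 genes named in this and the preceding paragraph as changed passed. In the other 3 comparisons 0 genes of these 7 lists passed.

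Transcripts of the mitochondrial genome, in contrast, were lower in 4n-whole than in 2n-whole for 12 of 13 genes, with a median log2 fold change of -1.46. The smallest p were those of mt-Atp6 (-1.81, SE 0.22, edgeR adjusted p = 4.77e-06), mt-Nd2 (-1.89, SE 0.24, edgeR adjusted p = 6.81e-06) and mt-Nd4 (-1.74, SE 0.22, edgeR adjusted p = 6.99e-06), subunits of ATP synthase and of complex I. They fell in 4n-bottom against 2n-whole for 8 of 13 (median -0.999) and in 4n-top against 2n-whole for 11 of 13 (median -1.43). In 4n-top against 4n-bottom 0 of 13 passed (median -0.46, with 5 at an unadjusted p under 0.05, beside 2.79% of all genes). The share of counts on the mRNAs of the mitochondrial genome was 3.19% to 3.90% in 2n-whole, 1.195% to 2.55% in 4n-whole, 1.46% to 3.40% in 4n-bottom and 1.32% to 1.6% in 4n-top. Levels were very uneven among these genes. In 2n-whole mt-Co1 had a mean of 14930 CPM, but mt-Co2 had 13.7, mt-Co3 7.86 and mt-Atp8 1.08. Whether reads of some of them were lost in alignment or counting was not tested, so the share covers counted reads only. Without the mouse in the model 0 of 13 passed in any comparison, with mt-Nd2 at -1.69 in 4n-whole (edgeR adjusted p = 0.0715). With these transcripts left out before normalization, Suclg1 passed in 4n-whole against 2n-whole (-0.28, edgeR adjusted p = 0.0459) and no other member did. The difference between the nuclear cycle genes and the mitochondrial genome was not tested.

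**Figure D4:**
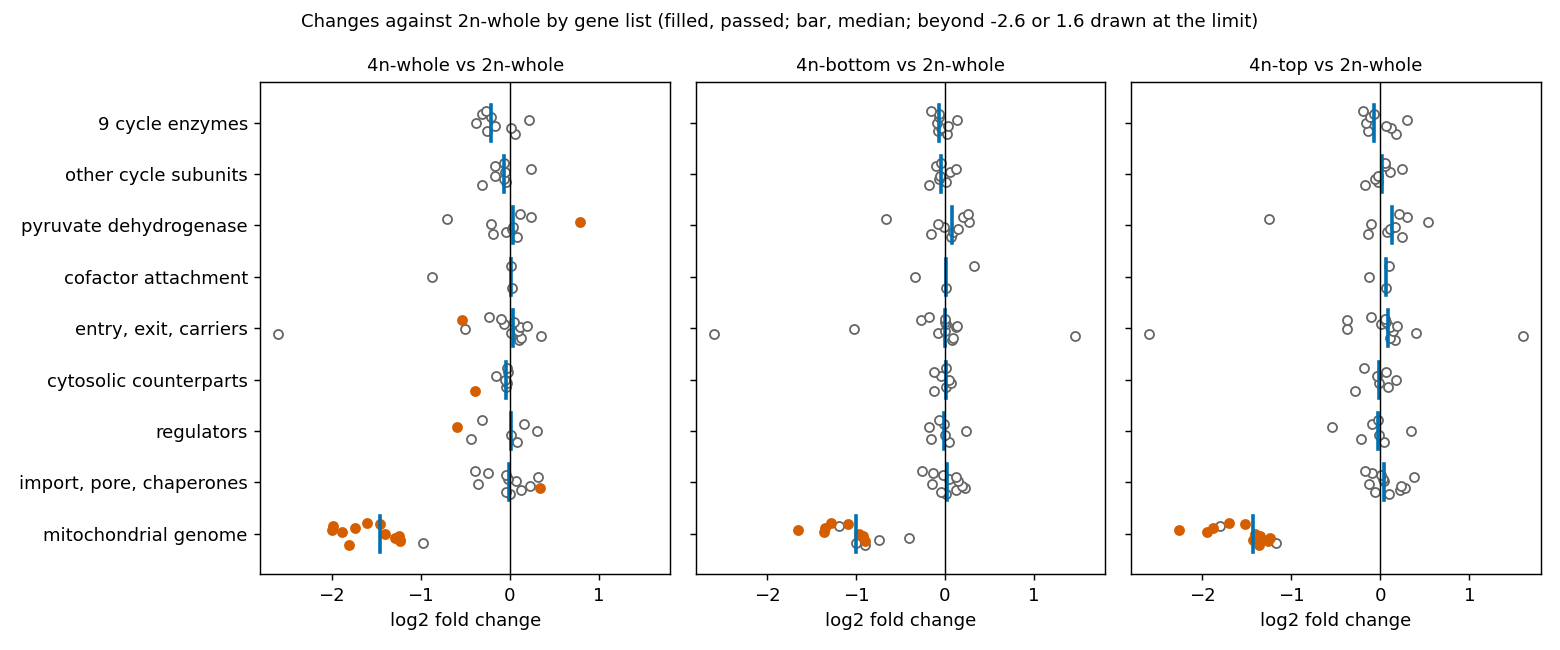
Log2 fold change of every tested gene of the cycle enzymes and of the lists around them in the 3 comparisons with 2n-whole, 1 point per gene, filled where the gene passed the test, with the median as a bar and points beyond the axis limits drawn at the limit. In 4n-whole against 2n-whole the 7 lists of nuclear genes around the cycle centre near 0 and the 9 enzymes at -0.214, whereas the mitochondrial genome has a median of -1.46.

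Markers of position in the liver lobule differed between the populations as well. Of 8 pericentral markers 8 rose in 4n-whole (median log2 fold change 1.61), among them Cyp2e1 (1.71) and Glul (1.30). The summed level of the 8, without TMM factors, was 458 to 733 CPM in 2n-whole and 907 to 3060 in 4n-whole. It was 809 to 1990 in 4n-bottom and 829 to 3080 in 4n-top. In 4n-top against 4n-bottom 4 of the 8 estimates were above 0 and 4 below. At an unadjusted p under 0.05 there were 3 higher and 2 lower, beside 2.79% of all genes in either direction. Of the 8 markers 1 passed, Glul, which was lower in 4n-top (-0.90, edgeR adjusted p = 0.0499). Slc1a2 was lower as well (-1.08, edgeR adjusted p = 0.0663). Cyp2e1 (0.72) and Cyp7a1 (0.76), both with unadjusted p under 0.05, had estimates of the opposite sign. Of 8 periportal markers 3 fell in 4n-whole. Their list had summed levels, without TMM factors, of 9470 to 12700 CPM in 2n-whole and 8940 to 13000 CPM in 4n-whole. The part of lobular position, of the biliary markers and of the mitochondrial share in the differences of the cycle enzymes was not tested.

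All of the 9 enzyme genes but Suclg1 and Mdh2 overlap in position with another annotated gene, for example Idh3g with Ssr4 and Srpk3, Idh3b with Nop56, Fh1 with Kmo, Idh3a with Acsbg1 and Cs with Coq10a, each on the opposite strand. These overlaps are of whole gene spans, and whether exons overlap was not tested. The strand setting of the counting is not given in the sources used here. Whether reads of such partners entered the counts of the members therefore cannot be told.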

How the data were processed

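Hepatocytes were sorted by Hoechst signal and their RNA was sequenced with a SMART-Seq Stranded kit. Reads were aligned to GRCm39 with STAR 2.7.11a and counted per gene with featureCounts. The authors deposited raw counts per gene symbol, before ComBat-seq. The annotation, the strand setting and the handling of read pairs are not given in the sources used here. Between 74.2% and 81.4% of the counts from 1 to 10 in a library were even numbers. Whether both mates of a pair were counted was not tested, and if they were, a count stands for fewer fragments. Total counts ran from 22049498 to 42096421 per library.

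Groups and mouse numbers came from the sample labels, and each mouse gave 1 library per population. After population means were removed, the 21 same-mouse pairs correlated across genes at a mean of 0.158 (range 0.0845 to 0.227), so the mouse was kept as a replicate block. P-values of the model with this block rest on the spread between libraries that remained after population and mouse were fitted.

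Counts were tested with edgeR 4.0.16 in R 4.3.3 (quasi-likelihood F test, TMM; filterByExpr at 10 counts per library and 15 in total; a model of population and mouse over 15 libraries). The Benjamini-Hochberg adjustment covered 17488 genes. A gene passed the test at an adjusted p under 0.05, and rose or fell accordingly. The mouse effect was removed with limma 3.58.1 for correlations and z-scores of log2 CPM (prior count 2). The scripts were tested on simulated data. There, 10 to 33 of 100 genes given a log2 fold change of 0.5 in size passed in a comparison. Of 100 genes given a change of 1, 38 to 50 passed. The changed genes were drawn at random from those that passed the filter, and recovery for the members alone was not measured.

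The members were selected by symbol alone. The members, lists and named genes were chosen with earlier results of these data known. The text names the 9 members, up to 3 genes of each list with the smallest p, and the 5 genes most like the members' mean. Ssr4, Srpk3, Nop56, Kmo, Acsbg1, Coq10a and the marker genes Cyp2e1, Cyp7a1, Glul, Slc1a2, Sox9, Spp1 and Alas2 are named in addition. So are mt-Co1, mt-Co2, mt-Co3 and mt-Atp8, for their levels. Alternatives were no replicate block, ComBat-seq (sva 3.50.0) followed by DESeq2 1.42.0, DESeq2 size factors in edgeR, DESeq2 with the mouse as block, library totals, no filter on low counts, mitochondrial transcripts left out, only the 2 populations compared, and each mouse left out. Added after the data were seen were the fit without 4n-whole of mouse 2 and the test of the mouse. Some items of the lists are not reported here. The Tf marker was not analysed here. The authors left out a 4n-top library of mouse 1 because its RNA quality was poor, and the counts used here do not hold it.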

Additional observations from a re-analysis of the deposited data

How the results depend on the processing

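Of the 9 enzymes, 0 passed in 4n-whole against 2n-whole, and this number was 5 with ComBat-seq and DESeq2, 3 with DESeq2 and the replicate block, and 1 each with DESeq2 size factors (Suclg1, adjusted p = 0.0427), with library totals (Mdh2, 0.43, adjusted p = 0.00651) and with mitochondrial transcripts left out (Suclg1). In 4n-top against 2n-whole it was 2 with ComBat-seq and DESeq2 and 1 each with library totals (Mdh2) and with only the 2 populations compared (Mdh2). With each mouse left out in turn, 0 to 2 members passed and 0 to 1 met the study's rule in 4n-whole against 2n-whole (Idh3g, without mouse 1), and 0 to 0 in the other comparisons. The cause of these changes was not tested. Without the replicate block 0 members passed in any of the 4 comparisons, as with it, whereas genes passing over the whole table fell from 957 to 40, from 2 to 0, from 86 to 0 and from 185 to 2 in the order 4n-whole against 2n-whole, 4n-top against 4n-bottom, 4n-bottom against 2n-whole and 4n-top against 2n-whole. In the same order these numbers were 2430, 29, 462 and 895 with ComBat-seq and DESeq2, 1431, 49, 176 and 408 with DESeq2 and the replicate block, 2580, 1, 132 and 596 with library totals, 1176, 40, 190 and 325 without the filter on low counts, 322, 15, 133 and 461 with only the 2 populations compared, and 474, 5, 152 and 302 without the shallowest library. With each mouse left out they ranged from 257 (without mouse 4; 473 without mouse 2) to 1403, from 0 (without mouse 3 or 4) to 29 (without mouse 2), from 49 (without mouse 4) to 122 and from 98 (without mouse 4) to 251.

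Library totals in place of TMM moved the median log2 fold change of all genes to 0.20, 0.05, 0.13 and 0.17 in that order, and changes under it are to be read against these shifts. Some estimates that changed sign were not near 0 in edgeR with TMM. Examples are Idh3b in 4n-whole (-0.17), and Idh3g (-0.16) and Fh1 (-0.14) in 4n-top against 2n-whole. The estimates that changed sign were not called. With library totals these were Idh3b (0.037) in 4n-whole, Ogdh (0.0053) and Suclg1 (0.0068) in 4n-top against 4n-bottom, Idh3a (0.079), Idh3g (0.036), Ogdh (0.049), Sucla2 (0.054) and Fh1 (0.048) in 4n-bottom, and Idh3g (0.0094), Ogdh (0.055), Sucla2 (0.103) and Fh1 (0.033) in 4n-top against 2n-whole. With ComBat-seq and DESeq2 they were Idh3a in 4n-whole (-0.015), Cs in 4n-bottom (-0.014) and Sucla2 in 4n-top against 4n-bottom (-0.020). Cs in 4n-bottom was also at -0.0026 with DESeq2 and the replicate block and at -0.0027 with DESeq2 size factors. Sucla2 in 4n-top against 4n-bottom was also at -0.046 with no replicate block, -0.00091 without the filter, -0.0028 without mitochondrial transcripts, -0.056 with only the 2 populations and -0.013 without the shallowest library. With a mouse or the shallowest library left out, the ranges that crossed 0 were -0.037 to 0.133 (Cs) and -0.087 to 0.068 (Idh3a) in 4n-whole, -0.030 to 0.047 (Cs), -0.116 to 0.053 (Idh3a), -0.174 to 0.014 (Idh3g) and -0.107 to 0.0076 (Sucla2) in 4n-bottom, -0.131 to 0.0072 (Sucla2) in 4n-top against 2n-whole, and -0.165 to 0.036 (Fh1), -0.031 to 0.097 (Idh3b), -0.106 to 0.057 (Ogdh) and -0.057 to 0.114 (Sucla2) in 4n-top against 4n-bottom. The members' counts were 487 or more in every library. The number of mice, the partial enrichment of 4n-top and 4n-bottom and the different spin of 2n-whole cells limit what the comparisons can resolve.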
